A study of Mus musculus with 6 samples.

Results

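The genes described here encode the proteins of the cytoplasmic ribosome, measured in the livers of 6 mice. They were taken from the gene table by symbol (Rps or Rpl followed by a number and at most the letter a or x, Rplp0 to Rplp2, and Rpsa) with at least 60 counts summed over the mice. The rule gave 76 of the 21983 genes in the table, 30 of the small and 46 of the large subunit, and all 76 were among the 13153 genes tested. The symbol pattern matched no gene below 60 counts. The members nearest to that limit were Rpl23a with 79 counts, Rps10 with 98 and Rpl38 with 102.

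RNA of whole liver was sequenced from C57BL/6 mice that had drunk thioacetamide (TAA), a liver toxin that causes scarring, at 400 mg/L over 16 weeks. Mice 49, 82 and 88 carried a floxed Prmt1 gene together with Cre driven from Lrat (Lrat-Cre; Prmt1f/f, here knockout), and mice 42, 83 and 90 carried the floxed gene without Cre (Prmt1f/f, here control). Lrat is active in hepatic stellate cells, a minor cell type of the liver, so Cre is not expected in most liver cells of the knockout mice. Prmt1 was not measured by cell type. The toxin and the floxed allele were common to both groups, the labelled age is 10 weeks without the time point it refers to, and no sex is given.

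A ribosome is a small subunit, which reads the messenger RNA, joined to a large subunit, which links amino acids and passes the new chain through an exit tunnel. Each ribosome holds about one copy of nearly every ribosomal protein, and cells make the proteins in step with ribosomal RNA, in hepatocytes for a large output of secreted plasma proteins. Most messenger RNAs of ribosomal proteins begin with a C followed by a run of pyrimidines (C and T), the terminal oligopyrimidine tract, through which mTORC1 signalling sets how strongly they are translated. That control acts on translation, which RNA counts do not measure.

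The start of the RNA is shown for members with and without such a run, because the run is the sequence feature by which this gene family is known. Windows are from the RefSeq promoter table (build GRCm38.p6), on the strand of the gene, with 10 bases before the annotated start and 20 from it. Capitals mark the longest run of C and T that begins with C within 10 bases of the start, where it has at least 6 bases. The windows lie at chr4:86857348-86857377 (minus strand) for Rps6, chr17:33955646-33955675 (minus) for Rps18, chr14:18270967-18270996 (minus) for Rpl15, chr7:141447641-141447670 (plus) for Rplp2, chr13:90923112-90923141 (plus) for Rps23 and chr2:32961702-32961731 (plus) for Rpl12. Those without a run lie at chr5:115559457-115559486 (plus) for Rplp0 and chr9:64173377-64173406 (plus) for Rpl4.
Rps6: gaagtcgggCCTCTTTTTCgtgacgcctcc
Rps18: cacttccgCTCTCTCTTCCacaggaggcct
Rpl15: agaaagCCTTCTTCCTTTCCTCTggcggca
Rplp2: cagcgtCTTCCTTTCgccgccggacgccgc
Rps23: cggctgggcggggCTTCCCgcaatgccttg
Rpl12: agcaggatccgtCTTTTCggctttcggctc
Rplp0: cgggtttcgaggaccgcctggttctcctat
Rpl4: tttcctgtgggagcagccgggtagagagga

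The RefSeq table held a start for 56 of the 76 members, and 31 of these (55.4%) had such a run, against 3707 of all 16501 genes of the count table with a start (22.5%). Of 15 translation factors and other genes listed as carrying the tract and with a start in the table, 33.3% had a run. Among subunits of the mitochondrial ribosome the share was 23.2%, and among ribosome biogenesis factors it was 14.8%. A match is a description of these letters only, and the window depends on where RefSeq places the start.

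Libraries held 13303884 to 16462278 counts, and levels are CPM (counts scaled to a common library size, with TMM factors), with knockout over control on a log2 scale. The targeted gene Prmt1, read from whole liver, was 44.4 ± 5.44 CPM in control and 28.8 ± 6.11 CPM in knockout mice (SD, n = 3), a log2 fold change of -0.62 with SE 0.20 and an adjusted p of 0.347 (edgeR quasi-likelihood test, Benjamini-Hochberg). Hepatocyte markers were present in every mouse (10 genes, together 68925 to 108123 CPM). Control mouse 90 stood apart from its group mates in the ribosomal protein genes, as described next, so values are given with and without it. Each p-value sets the genotype difference against the spread between mice of the same genotype. That spread comes from 3 mice a genotype, or fewer where mice are left out, together with information shared over genes.

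The summed level of the 76 genes was 9879 CPM in control mouse 42, 10250 in control mouse 83 and 17492 in control mouse 90. In the knockout mice it was 10341 in mouse 49, 10080 in mouse 82 and 10599 in mouse 88. Mouse 90 was thus 1.74 times the mean of its group mates, while the other 5 mice lay within 9879 to 10599 CPM and the groups overlapped. The control mean was 12540 ± 4292 CPM and the knockout mean 10340 ± 259 CPM (SD, n = 3), a ratio of 0.825. Without mouse 90 the control mean was 10064 CPM and the ratio 1.03. In bulk tissue, fewer cells of a type and less RNA per cell cannot be told apart.

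**Figure D1:**
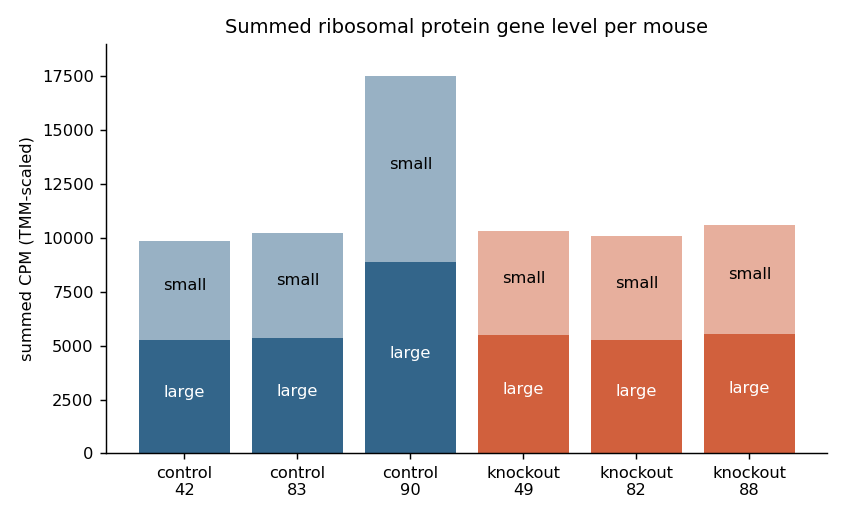
Summed level of the 76 ribosomal protein genes in each mouse, in TMM-scaled CPM, with the large subunit below and the small subunit above; blue bars are control and orange bars knockout mice. Control mouse 90 reaches 17492 CPM and the other 5 mice lie between 9879 and 10599.

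The ribosomal protein genes took 1.04%, 1.23% and 1.61% of all counts in control mice 42, 83 and 90. In knockout mice 49, 82 and 88 they took 1.04%, 0.915% and 1.0%. On this unscaled share mouse 83 also stood above every knockout mouse and mouse 42 was at 1.0416% against 1.0376% in mouse 49, so the groups were separate on it, where they overlapped after TMM scaling. The ratio of knockout to control means on this share was 0.762 with all mice. Without mouse 90 it was 0.869, where the TMM-scaled sum gave 1.03. TMM factors ran from 0.909 in mouse 82 to 1.20 in mouse 83.

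Both subunits were high in mouse 90. The 30 small subunit genes summed to 4601, 4887 and 8608 CPM in control mice 42, 83 and 90, and to 4849, 4798 and 5037 CPM in knockout mice 49, 82 and 88. The 46 large subunit genes summed to 5278, 5363 and 8884 CPM in the controls and 5491, 5282 and 5562 CPM in the knockouts. Mouse 90 was 1.81 times its mates for the small and 1.67 times for the large subunit. The small subunit made up 46.6% to 49.2% of the total over the 6 mice, highest in mouse 90.

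To place each mouse on the same footing, each gene's level was set against the mean of the other 2 mice of that genotype, on the log2(CPM + 0.5) scale. The median over the 76 genes was 0.81 in mouse 90, against -0.49 in mouse 42 and -0.42 in mouse 83, whose mates include mouse 90. In the knockouts it was 0.06, -0.10 and 0.03 in mice 49, 82 and 88. In mouse 90, 73 of the 76 genes lay above their mates, and the median over all genes tested was -0.04. Of all genes tested, 7.56% deviated upward in mouse 90 by as much as the median ribosomal protein gene.

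**Figure D2:**
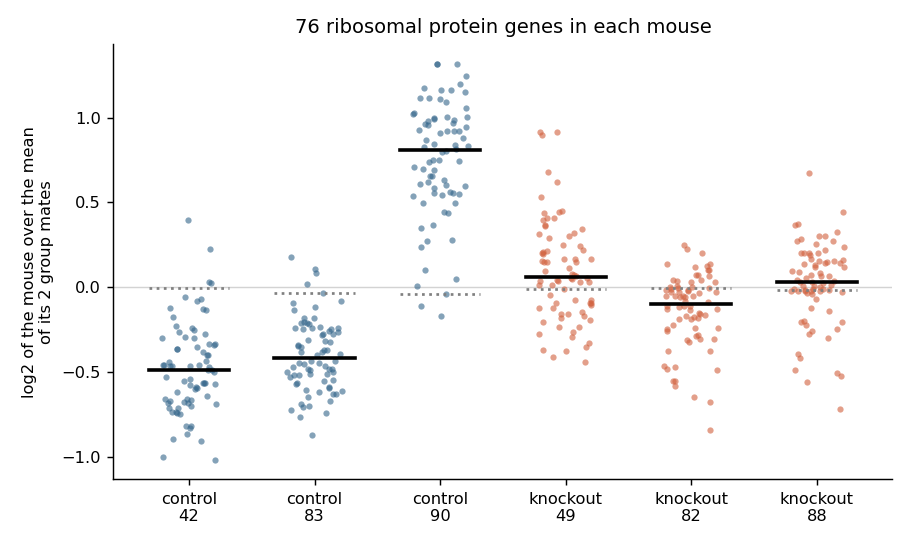
Each point is 1 of the 76 ribosomal protein genes in 1 mouse, as the log2 of its level over the mean of its 2 group mates (0.5 CPM added); the black bar is the median of the 76 genes and the dotted grey bar that of all genes tested. In control mouse 90 the median was 0.81 and 73 of 76 points lie above 0, while the knockout medians were between -0.10 and 0.06.

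Mouse 90 held the highest level of the 6 mice for 68 of the 76 genes, against 27.3% of all genes tested. The ratio of mouse 90 to its mates ran from 0.834 in Rpl23a to 2.82 in Rps29, with a median of 1.77. It was at least 1.5 in 55 members (15.4% of all genes tested) and at least 2 in 19 members (5.19% of all genes). Levels in mouse 90 were below the mean of its mates in 3 members, Rpl23a, Rpl3 and Rps7, and of these only Rpl3 was below both mates. The median coefficient of variation within the control group was 35.8% for the members and 22.5% for all genes, and within the knockout group it was 10.6% and 15.8%.

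In the comparison of genotypes, 74 of the 76 genes had a negative log2 fold change and 2 a positive one. The median was -0.37 and the range -0.83 to 0.05, beside a median of -0.02 over all genes tested, of which 52.7% were negative. No member passed an adjusted p of 0.05 (edgeR quasi-likelihood test, smallest adjusted p 0.448), and 0 of all 13153 genes did (0%). At an unadjusted p under 0.05, 2 members were lower in knockout mice, Rps23 and Rpl12, which is 2 of 76 where 5.95% of all genes were called lower. No member was called higher, against 5.06% of all genes. DESeq2 called 238 of 13146 genes at an adjusted p of 0.05 (1.81%) and no member among them, with a smallest adjusted p of 0.353 and 4 members lower at an unadjusted p under 0.05, where 6.83% of all genes were. The 95% interval of the fold change held 0 in 74 of the 76 members.

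The count of lower members at an unadjusted p under 0.05 moved with single mice. It was 17 without control mouse 42, where 9.68% of all genes were called lower, 5 without control mouse 83 (3.76% of all genes) and 0 without control mouse 90 (5.41%). It was 3 without knockout mouse 49 (6.58%), 0 without knockout mouse 82 (3.95%) and 1 without knockout mouse 88 (5.25%).

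When mouse 90 was left out, the median log2 fold change of the members was -0.07, beside -0.05 over all genes tested. The members then split into 55 negative and 21 positive, or 72.4% negative beside 56.7% of all genes, with a range of -0.58 to 0.20. Called lower at an unadjusted p under 0.05 were 0 members and 5.41% of all genes, and called higher 0 members and 5.26% of all genes; the smallest adjusted p of a member was 0.577. The median SE of a member's fold change was 0.29 with all mice and 0.17 without mouse 90. In all 76 members the mean of the knockout mice lay within 1.5-fold of the mean of mice 42 and 83. The share of all genes tested within that limit was not counted, so this is not shown to be particular to the members.

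**Figure D3:**
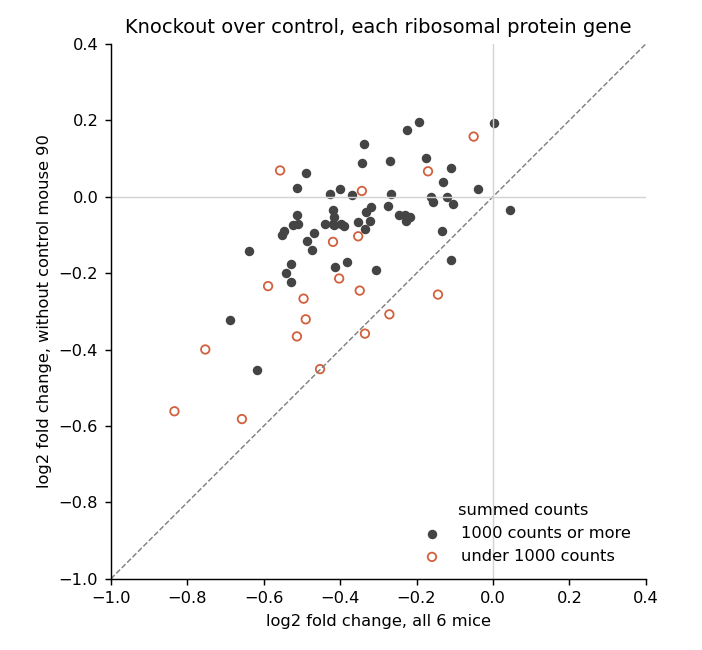
Log2 fold change of knockout over control for each of the 76 genes with all 6 mice (x axis) and without control mouse 90 (y axis); the dashed line marks equal values, and open circles are the 19 genes with under 1000 summed counts. The median moves from -0.37 to -0.07, and 55 genes lie below 0 on the y axis, 54 of them below 0 on both axes.

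Groups that did not overlap were found in 5 members, all lower in knockout mice (1046 of all genes tested, 7.95%), and in no member with the knockout mice higher (8.94% of all genes). They were Rps23, Rpl37, Rps16, Rpl11 and Rpl24, the last named here because its values were seen. Of the 5, 4 had under 1000 counts summed over the 6 mice, and only Rpl11 had more, 1235.

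Rps23, whose protein sits at the decoding centre of the small subunit (ENSMUSG00000049517.8, chr13:90922958-90924950 of GRCm38, plus strand, 4 exons), had the smallest p. Its level was 4.0, 4.22 and 7.20 CPM in control mice 42, 83 and 90. In knockout mice 49, 82 and 88 it was 3.73, 2.40 and 2.45 CPM. Mouse 90 was the highest and mouse 49 came close to the lowest control. The log2 fold change was -0.83 with SE 0.36 and an adjusted p of 0.448 (edgeR), and -0.56 without mouse 90.

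Rpl37, a zinc-binding protein of the large subunit, was at 8.40, 7.57 and 15.6 CPM in the controls (mice 42, 83, 90) and 7.15, 4.80 and 6.70 CPM in the knockouts (mice 49, 82, 88). The highest knockout mouse was 0.425 CPM below the lowest control. Its log2 fold change was -0.75 with SE 0.33 (adjusted p 0.454, edgeR), and -0.40 without mouse 90. Rps16, whose tail reaches the transfer RNA in the small subunit, was at 8.53, 8.49 and 12.2 CPM in the controls and 7.66, 7.27 and 5.48 CPM in the knockouts. Its log2 fold change was -0.51 with all mice and -0.37 without mouse 90. Rpl24, which forms a bridge between the subunits, was at 4.67, 4.12 and 5.81 CPM in the controls and 3.86, 3.45 and 4.11 CPM in the knockouts. The groups of Rpl24 were 0.0091 CPM apart.

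Low counts went with the more negative values once mouse 90 was left out. The 19 members with under 1000 summed counts had a median log2 fold change of -0.42 with all mice and -0.26 without mouse 90, where 15 of the 19 were negative. The 57 members with 1000 counts or more had medians of -0.35 and -0.05, with 40 of 57 negative without mouse 90. None of the 19 passed an adjusted p of 0.05, and the part of counting error in their values was not tested.

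The P stalk is the arm of the large subunit that recruits the elongation factors. Its base protein Rplp0, the member with the most counts (72948), was at 810, 741 and 942 CPM in control mice 42, 83 and 90. In knockout mice 49, 82 and 88 it was at 852, 762 and 813 CPM. All 3 knockout values lay inside the control range, with a log2 fold change of -0.04 (SE 0.22, 95% interval -0.53 to 0.45). Rplp1, which pairs with Rplp2 at the tip, was at 386, 400 and 818 CPM in the controls and 464, 456 and 453 CPM in the knockouts. Rplp1 in mouse 90 was 2.08 times its mates where Rplp0 was 1.21 times, and without mouse 90 the log2 fold change of Rplp1 was 0.18. Rplp2 was at 87.9, 96.6 and 136 CPM in the controls and 95.03, 89.3 and 90.9 CPM in the knockouts.

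Rpl12, at the foot of the stalk, was at 19.3, 20.02 and 29.0 CPM in the controls and 19.9, 13.1 and 11.3 CPM in the knockouts. Knockout mouse 49 lay between control mice 42 and 83, so the groups overlapped, and mice 82 and 88 lay below every control. The log2 fold change was -0.62 with SE 0.27 (adjusted p 0.450, edgeR) and -0.45 without mouse 90. Over the 4 stalk genes the median was -0.22, and -0.02 without mouse 90.

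Rpl5 and Rpl11 join the 5S ribosomal RNA in a particle that, when unassembled, binds Mdm2 and so stabilises p53. Rpl11 was at 12.7, 12.9 and 24.7 CPM in the controls and 10.7, 12.1 and 11.6 CPM in the knockouts. The groups of Rpl11 were separate, by 0.526 CPM, with a log2 fold change of -0.54 (SE 0.29, adjusted p 0.509, edgeR) and -0.20 without mouse 90. Rpl5 was at 4.47, 4.22 and 4.50 CPM in the controls and 5.28, 2.10 and 3.03 CPM in the knockouts. Mouse 90 did not stand out for Rpl5, and the knockout values lay on both sides of the controls. The levels were 1.92 CPM per kb for Rpl5 and 16.9 CPM per kb for Rpl11. Of the 50-base stretches of their transcripts, 93.8% in Rpl5 and 62.2% in Rpl11 occur in other annotated genes, so the level of 1 relative to the other is uncertain.

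All 8 members around the exit tunnel had a negative log2 fold change (median -0.42), as did 74 of the 76 members and 52.7% of all genes. None of the 8 passed an unadjusted p of 0.05, where 5.95% of all genes were called lower and 5.06% higher. Rpl4, which lines the narrowest part of the tunnel, was at 736, 643 and 1018 CPM in the controls and 754, 710 and 725 CPM in the knockouts. Rpl39, a very short protein inside the tunnel, was at 50.4, 65.2 and 138 CPM in the controls and 43.7, 55.1 and 63.8 CPM in the knockouts. Rpl26, at the rim, was at 195, 222 and 466 CPM in the controls and 189, 198 and 214 CPM in the knockouts. Mouse 90 was 1.48, 2.39 and 2.24 times its mates in Rpl4, Rpl39 and Rpl26. The log2 fold changes were -0.13, -0.64 and -0.55 with all mice, and 0.04, -0.14 and -0.10 without mouse 90. Without mouse 90 the median of the 8 was -0.13. Rpl17 and Rpl4 turned positive, and Rpl19, Rpl31, Rpl35 and Rpl23a were between -0.26 and -0.12.

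The 6 members that line the path of the messenger RNA through the small subunit had a median of -0.30, and 0.03 without mouse 90. Rps3, at the entry, was at 422, 470 and 607 CPM in the controls and 419, 469 and 491 CPM in the knockouts. Rps2, also at the entry, was at 551, 554 and 835 CPM in the controls and 668, 585 and 544 CPM in the knockouts. For Rps3 and Rps2 all 3 knockout mice lay below mouse 90, and the log2 fold changes were -0.12 and -0.11 with all mice. Rps28, at the exit, was at 12.9, 13.8 and 33.9 CPM in the controls and 15.7, 10.6 and 16.6 CPM in the knockouts. Rps28 had the second-highest ratio of mouse 90 to its mates after Rps29, 2.55. The log2 fold changes of Rps14 and Rps26 were -0.39 and -0.27, and -0.08 and 0.09 without mouse 90.

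Loss of 1 copy of a ribosomal protein gene causes Diamond-Blackfan anaemia in people, and 11 members belong to a list of such genes. All 11 had a negative log2 fold change (median -0.49), and 9 of 11 were highest in mouse 90. Of all 76 members, 74 were negative and 68 were highest in mouse 90, against 52.7% and 27.3% of all genes. At an unadjusted p under 0.05, 0 of the 11 were called, where 5.95% of all genes were called lower and 5.06% higher. Without mouse 90 the median of the 11 was -0.17. Rps19, the gene most often affected in that disease, was at 114, 130 and 245 CPM in the controls and 128, 103 and 118 CPM in the knockouts. Rps7 was at 28.4, 30.8 and 28.8 CPM in the controls and 23.8, 27.0 and 30.8 CPM in the knockouts. Rps19 in mouse 90 was 2.003 times its mates, and Rps7 was 0.973 times. The log2 fold changes of Rpl15, Rpl35a and Rps24 lay between -0.51 and -0.31 with all mice and between -0.19 and -0.05 without mouse 90.

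Rps6, the protein phosphorylated by the S6 kinases downstream of mTORC1, was at 6.73, 6.40 and 10.4 CPM in the controls and 8.69, 8.32 and 5.62 CPM in the knockouts. Its log2 fold change was -0.05 (95% interval -0.72 to 0.62). Rpl3, which reaches the peptidyl transferase centre, was 1 of the 2 members with a positive value, at 63.3, 65.0 and 59.3 CPM in the controls and 52.9, 64.7 and 76.2 CPM in the knockouts. The log2 fold change of Rpl3 was 0.05, and -0.03 without mouse 90. The other was Rps21, of the small subunit, named here because its value was seen, at 0.0038, and 0.19 without mouse 90. Rpl10, which joins the large subunit late in its assembly, was at 15.5, 15.6 and 18.4 CPM in the controls and 22.1, 11.3 and 11.6 CPM in the knockouts, where mouse 49 held the highest and mice 82 and 88 the lowest values. Rpsa, a small subunit protein that also serves as a laminin receptor precursor, was at 430, 380 and 827 CPM in the controls and 512, 473 and 447 CPM in the knockouts. Rps27a, made as a fusion with ubiquitin, was at 4.07, 5.44 and 7.12 CPM in the controls and 4.89, 3.00 and 3.89 CPM in the knockouts. Rpl13a had a log2 fold change of -0.69, and -0.32 without mouse 90.

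The deviation of mouse 90 was related to transcript length across the genome. Lengths are those of the shortest principal transcript in GENCODE M21. The members were short, 271 to 3706 bases with a median of 705, beside a median of 2795 in the 13001 other protein-coding genes tested. Across those other genes, Spearman's rho between length and deviation from group mates was -0.56 in mouse 90, 0.37 in mouse 42 and 0.34 in mouse 83. In knockout mice 49, 82 and 88 it was -0.02, -0.06 and 0.08. The points of 1 mouse share a library, and the control mice enter each other's reference, so these values are descriptions.

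In mouse 90 the median deviation of other genes was 0.91 below 600 bases (193 genes), 0.61 from 600 to 1000 bases (699 genes), 0.29 from 1000 to 2000 bases (3069 genes), -0.05 from 2000 to 4000 bases (5324 genes) and -0.39 above that (3716 genes). The members followed at 0.90 below 600 bases (28 members) and 0.70 from 600 to 1000 bases (31 members). From 1000 to 2000 bases they were at 0.80 (15 members), above the 0.29 of other genes of that length. The 2 members from 2000 to 4000 bases were at 0.52, against -0.05 in other genes. These classes depend on the annotated transcript picked. From 1000 to 2000 bases the coding part of the members ran from 399 bases in Rps24 to 1257 in Rpl4. In the next class it was 357 of 3706 bases in Rps20 and 891 of 2045 in Rpl5. Which transcripts the liver held was not tested, so members above 1000 bases may be set beside genes of unlike length. Below 600 bases the members thus stood where other genes of that length stood. Within the members rho between length and deviation was -0.20 in mouse 90. Mouse 90 had the fewest counts (13303884), and the 15266 genes detected in it lay within the 15168 to 15875 of the other mice.

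**Figure D4:**
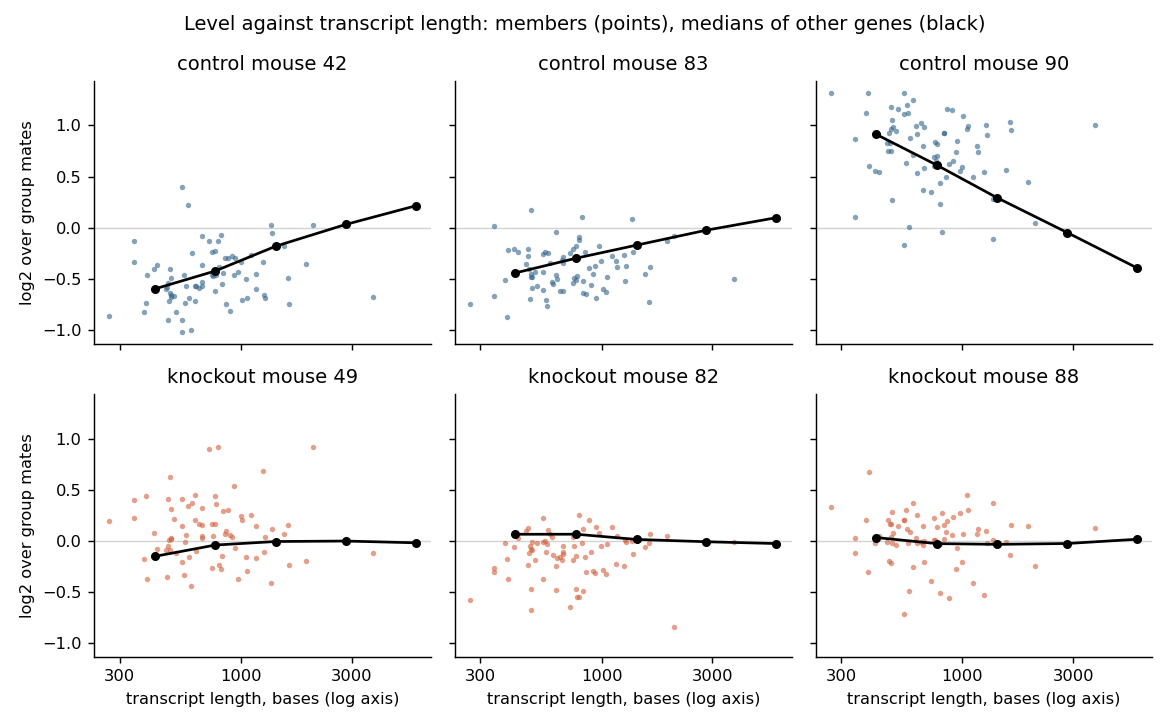
For each mouse, points are the 76 ribosomal protein genes by transcript length (log axis, bases) and log2 level over their group mates; black dots joined by a line are medians of the other protein-coding genes in 5 length classes. In control mouse 90 the black line runs from 0.91 below 600 bases to -0.39 above 4000, and it stays between -0.15 and 0.06 in the 3 knockout mice.

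The genotype difference also varied with length. With all mice, other genes below 600 bases had a median log2 fold change of -0.23 and members of that length -0.40. Without mouse 90 these were 0.10 and -0.05. From 600 to 1000 bases the values were -0.23 and -0.35 with all mice, and -0.02 and -0.10 without mouse 90. From 1000 to 2000 bases they were -0.11 and -0.37 with all mice, and -0.04 and -0.03 without it, with the same limit on the lengths of the members. RNA integrity is not part of the labels, and its part in the length relation was not tested.

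Markers of some other cells also differed in mouse 90. All 9 tested lymphocyte markers of 10 were highest there, and their summed level was 9.67, 18.9 and 36.2 CPM in control mice 42, 83 and 90 and 10.2 to 11.4 CPM in the knockouts. Neutrophil markers (8 genes) summed to 18.7, 52.9 and 89.9 CPM in the controls and 11.9 to 17.9 CPM in the knockouts. Macrophage markers (10 genes) summed to 456, 1172 and 1481 CPM in the controls and 573 to 796 CPM in the knockouts. Mouse 83 lay above every knockout mouse for these lists, and for the summed ribosomal protein genes it did so in the share of counts but not after TMM scaling. Stellate cell markers (10 genes) summed to 1619, 1640 and 1336 CPM in the controls and 442 to 975 CPM in the knockouts. The groups were separate for the stellate markers and overlapped for the summed ribosomal protein genes, both after TMM scaling. Hepatocyte markers were at 108123 CPM in mouse 90 and 68925 to 101830 CPM in the other mice. Highest in mouse 90 were 4 of 10 hepatocyte, 6 of 10 macrophage, 4 of 5 tested neutrophil and 2 of 10 stellate cell markers. For endothelial, bile duct and red cell markers the counts were 2 of 8, 0 of 7 and 0 of 4 tested. Of all genes tested, 27.3% were highest there. No marker was at 0 in all mice, and the part of cell composition in the ribosomal protein values was not tested.

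Per base of transcript the members spanned a 639-fold range. Rpl41, a peptide of the subunit interface and among the shortest proteins known, was highest at 1004 CPM per kb (mean of 6 mice), followed by Rplp1 at 995, Rps15 at 675, Rps2 at 624 and Rps14 at 623. Rpl23a was lowest at 1.57 CPM per kb, with Rpl5 at 1.92 and Rps10 at 2.16. The median member was at 109 CPM per kb beside 7.07 over the 13100 tested genes with a length. Of the members, 33 were among the 500 highest genes of the table and 7 lay below the median of all genes. The 10 members with the most counts held 47.1% of all member counts, a share that is not scaled for transcript length.

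Many ribosomal protein genes have processed pseudogenes, copies of their messenger RNA inserted elsewhere in the genome, to which reads can align equally well. For each member the share of its transcript's 50-base stretches that occur exactly in an annotated pseudogene was counted. The median was 53.4% and the highest share 88.1% in Rpl10a, and 75 of the 76 members had at least 1 shared stretch. The median of 71 subunits of oxidative phosphorylation was 0%. Coding stretches of 50 bases from the 2 lowly counted members Rps6 and Rpl23a are shown in capitals with 10 bases on each side. Each was the stretch found in the most pseudogenes among those within 1 coding exon and without a match on an excluded chromosome. The Rps6 stretch lies in exon 5 of 5 at chr4:86854764-86854833 (GRCm38, minus strand) and occurs in 9 pseudogenes. The Rpl23a stretch lies in exon 3 of 5 at chr11:78181494-78181563 (minus strand) and occurs in 17.
Rps6: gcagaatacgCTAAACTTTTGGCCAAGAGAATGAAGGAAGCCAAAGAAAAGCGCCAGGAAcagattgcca
Rpl23a: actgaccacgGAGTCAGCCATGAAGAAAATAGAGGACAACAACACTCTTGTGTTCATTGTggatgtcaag

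Levels were lower in members with a larger share. The 14 members below 30% had a median of 244 CPM per kb, the 29 from 30% to 60% one of 126, and the 33 above 60% one of 34.5. Spearman's rho over the 76 genes was -0.35, a description across genes of the same libraries. Rps6, with 84.6% of its stretches shared, was at 8.76 CPM per kb, and Rpl23a, with 82.6%, was lowest. There were exceptions by pseudogene share, as Rps2 with 79.0% was at 624 CPM per kb and Rpl5 with 48.5% was at 1.92. Counting stretches found in any other annotated gene, the share was 93.8% in Rpl5 and 79.0% in Rps2. Spearman's rho over the 76 genes was then -0.41. How reads with several equal placements were counted is not given in the sources used here. Levels of these genes relative to each other are therefore uncertain. The genotype medians were -0.34, -0.42 and -0.35 in the 3 classes, and the median deviations of mouse 90 were 0.84, 0.92 and 0.70.

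**Figure D5:**
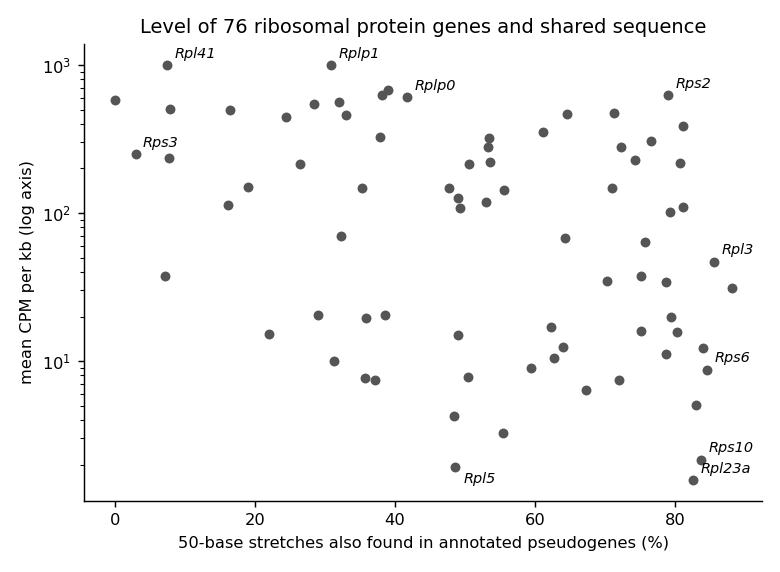
Mean level of each of the 76 genes over 6 mice in CPM per kb (log axis) against the percent of its 50-base stretches that also occur in annotated pseudogenes. Median levels run from 244 CPM per kb below 30% shared to 34.5 above 60%, with Rpl41 highest and Rpl23a lowest.

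Some counts stood with the copies. Of 289 symbols in GENCODE M21 made of a family symbol and the ending -ps, 8 were in the count table. Pseudogenes of the family under other names are not in these counts. Rps12-ps3 held 11794 counts against 1506 for Rps12, Rpl9-ps6 held 4935 against 744 for Rpl9, and Rpl36a-ps1 held 999 against 446 for Rpl36a. The other 5 held fewer counts than their parents, with 1132 in Rpl10-ps3 against 1419 in Rpl10, 329 in Rpl13a-ps1 against 1399 in Rpl13a, 19 in Rpl27-ps3 against 669 in Rpl27, and 0 in Rpl36-ps4 and Rpl9-ps1. Rps27 held 268 counts while its paralog Rps27l held 22187 and its retrogene Rps27rt held 13586. Rps12-ps3 was at 111, 138 and 225 CPM in the controls and 113, 104 and 110 CPM in the knockouts, the same order of controls as in the summed members. The 5 tested pseudogenes had a median log2 fold change of -0.42, and -0.06 without mouse 90. Counts of the paralogs Rpl10l, Rpl39l and Rpl3l were 0, 1 and 12, against 1419, 6022 and 5696 for Rpl10, Rpl39 and Rpl3.

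Ribosomal proteins and relatives outside the symbol rule were near the members. Of 11 tested, such as Rps3a1, Rack1 and Fau, all 11 had a negative log2 fold change, against 52.7% of all genes. Their median was -0.28, and -0.10 without mouse 90. At an unadjusted p under 0.05, 1 of the 11 was called lower, where 5.95% of all genes were. That gene was Rps19bp1, which encodes a binding partner of Rps19 and no ribosomal protein, at -0.69 (SE 0.26, adjusted p 0.401, edgeR). The next was Rpl22l1, a paralog of Rpl22, at -0.61. Rack1, a scaffold on the small subunit, was at 416, 449 and 686 CPM in the controls and 393, 414 and 438 CPM in the knockouts.

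Translation factors and other genes whose messages also carry the tract had a median of -0.22 over 21 genes. At an unadjusted p under 0.05, 2 were called lower (5.95% of all genes) and 0 higher (5.06% of all genes). The 2 lower genes were Vim, an intermediate filament of mesenchymal cells, at -0.98, and Npm1, a nucleolar chaperone, at -0.51. The median deviation of the 21 genes in mouse 90 was 0.44, below the 0.81 of the ribosomal proteins. Without mouse 90 their median log2 fold change was -0.09. The 31 initiation and elongation factors without the tract had a median of -0.09 and no call in either direction; the lowest p were those of Eif2s2 at -0.38 and Eif4a1 at -0.43. Among members, those with a run at the start deviated by a median of 0.75 in mouse 90 and those without by 0.71.

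Ribosome biogenesis factors, which process ribosomal RNA and assemble subunits in the nucleolus, had a median of -0.21 over 71 genes. That median was -0.21 without mouse 90 as well. With all mice, 60 of the 71 were negative, against 52.7% of all genes. At an unadjusted p under 0.05, 4 were called lower and 0 higher, where 5.95% and 5.06% of all genes were. Npm1 was at -0.51 and Nhp2, of the pseudouridylation complex, at -0.67 (adjusted p 0.396 for both, edgeR). The summed level of these factors was 2946, 2768 and 3193 CPM in the controls and 3107, 2223 and 2309 CPM in the knockouts. Knockout mouse 49 lay inside the control range and mice 82 and 88 lay below it, which is not the order of mice found for the ribosomal proteins.

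Of 26 tested regulators of the pathway (mTORC1, MYC and tract-binding genes), 1 was called lower and 1 higher at an unadjusted p under 0.05. Over all genes, 5.95% were called lower and 5.06% higher. Both of the called regulators bind the cap-binding protein eIF4E. Eif4ebp1 was at 63.2, 75.7 and 98.2 CPM in the controls and 60.7, 50.1 and 53.0 CPM in the knockouts, a log2 fold change of -0.53 (adjusted p 0.396, edgeR). Eif4ebp2 was at 235, 170 and 154 CPM in the controls and 251, 283 and 256 CPM in the knockouts, a log2 fold change of 0.50 (adjusted p 0.451, edgeR). The groups of each gene were separate, in opposite directions, and the values without mouse 90 were -0.39 and 0.34. The median of the 26 was 0.17.

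Most genes of the mitochondrial ribosome and of oxidative phosphorylation were also highest in mouse 90, against 27.3% of all genes tested. The 75 mitochondrial ribosomal proteins had a median deviation of 0.60 in mouse 90, with 67 highest there. The 69 nuclear-encoded subunits of oxidative phosphorylation had 0.97, with 59 highest there, above the 0.81 of the cytoplasmic ribosomal proteins. Their genotype medians were -0.16 and -0.09 with all mice, and 0.02 and 0.29 without mouse 90. No mitochondrial ribosomal protein was called at an unadjusted p under 0.05 (lowest p in Mrps30 at -0.70 and Mrpl46 at -0.47), and 1 oxidative phosphorylation gene was, Ndufs1 at 0.53, followed by Ndufv1 at 0.33. Over all genes, 5.95% were called lower and 5.06% higher. None of the genes in any list here passed an adjusted p of 0.05 in edgeR.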

How the data were processed

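Raw counts per gene, as deposited by the authors for 6 mice in 1 table of 21983 symbols, were used unchanged. Per the labels' protocols, TRIzol was used for extraction and the NEBNext Ultra kit for the libraries. Per the submitters' processing notes, the tools were Trimmomatic, FastQC, STAR and HTSeq, on mm10. The sources used here do not give versions, annotation, strand setting or the treatment of reads with several placements, so genes overlapping on opposite strands cannot be told apart.

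For the 13153 genes passing filterByExpr, TMM-scaled counts of the 6 mice entered the edgeR quasi-likelihood test (edgeR 4.0.16 in R 4.3.3). Genotype was the single model term, and p-values were adjusted by Benjamini-Hochberg over all genes; 95% intervals use a mean of 8.75 degrees of freedom, which include the prior degrees of freedom shared over genes. The fit was tested on simulated data. Deviations from group mates are log2 after adding 0.5 CPM. Lengths come from GENCODE M21 (GRCm38, the assembly of mm10), as the shortest principal, basic, CCDS protein-coding transcript; 21896 symbols matched once, among them all 76 members. Starts come from RefSeq (GRCm38.p6).

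Members and gene lists were chosen with earlier results of these data known. Named were Prmt1, the members of the role lists with Rps6, Rpsa, Rpl10, Rps27a, Rpl41 and Rpl3, the 10 members with the smallest p, the 5 highest and 3 lowest per kb, those next to 60 counts, and the 2 genes of smallest p in each surrounding list. Rpl24, Rps21, Rps29, Rpl10a, Rpl38 and the paralogs and pseudogenes with their parents were named after their values were seen. The lists of mitochondrial ribosomal proteins, oxidative phosphorylation subunits and pseudogenes are set beside the members, and their transcript lengths are not given here. Markers of endothelial, bile duct and red cells were also summed. These were 309 to 494, 285 to 1315 and 32.8 to 192 CPM over the 6 mice.

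Alternatives to TMM were total counts only, RLE size factors and TMM without the members. Others were a filter of at least 1 CPM in 3 mice or none, limma-voom (limma 3.58.1), DESeq2 1.42.0, each mouse left out and the 4 mice numbered over 80 alone. Some genes that the naming rule takes, and 1 alternative set of members, are not reported here. Restricting the members to those under 30% shared stretches or with 1000 counts or more was chosen after seeing the data.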

Additional observations from a re-analysis of the deposited data

How the results depend on the processing

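The median log2 fold change of the members was negative in every alternative run, from -0.56 (mice numbered over 80 alone) to -0.07 (without control mouse 90). The median of all genes tested was negative in every run as well, at -0.03 and -0.05 in those named. The members thus differed from all genes by -0.52 in the mice numbered over 80 alone, which include mouse 90, and by -0.02 without mouse 90. With total counts only, the median of all genes moved from -0.02 to -0.17 and that of the members to -0.49, so the difference between them was -0.32 against -0.35 with TMM. The summed level of knockout over control was 0.762 with total counts only, and 0.745 to 1.03 when 1 mouse was left out under TMM scaling. With total counts only and mouse 90 left out, that ratio was 0.868. Members under 30% shared stretches had a median of -0.34, and those with 1000 counts or more -0.35.

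No member passed an adjusted p of 0.05 under any alternative. Over all genes, 0 passed in the edgeR fit, 4 with no low-count filter, 238 with DESeq2, 0 with limma-voom, and 0 to 13 when 1 mouse was left out (13 without knockout mouse 49). Members called lower at an unadjusted p under 0.05 numbered 2 in the edgeR fit, 18 with total counts only, 4 with no low-count filter, 4 with DESeq2, 1 with limma-voom, 6 in the mice numbered over 80 alone and 0 to 17 when 1 mouse was left out. The share of all genes called lower was 9.90% with total counts only, 6.42% with no low-count filter, 6.83% with DESeq2, 5.42% with limma-voom and 9.98% in the mice numbered over 80 alone.

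Of 38 named members, 13 changed sign in some alternative and 25 did not. When 1 mouse was left out, the log2 fold change ran from -0.521 to 0.0170 in Rpl10, -0.352 to 0.0667 in Rpl17, -0.393 to 0.137 in Rpl23a, -0.118 to 0.174 in Rpl3, -0.267 to 0.0396 in Rpl4, -0.270 to 0.000412 in Rpl41 and -0.115 to 0.0196 in Rplp0. It ran from -0.410 to 0.176 in Rplp1, -0.211 to 0.0745 in Rps2, -0.449 to 0.0938 in Rps26, -0.724 to 0.0632 in Rps28, -0.180 to 0.158 in Rps6 and -0.397 to 0.197 in Rpsa. Of the 17 sign changes, 11 came without control mouse 90, 3 without knockout mouse 88, 1 without knockout mouse 82, 1 without control mouse 42 and 1 with total counts only (Rpl3, -0.12). None of these values passed an adjusted p of 0.05, and the cause was not tested.

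No paired analysis was possible because the mouse numbers are not shared between genotypes. The precision is that of 3 mice a group: the median SE of a member's log2 fold change was 0.29 with all mice and 0.17 without control mouse 90.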
